A study of Mus musculus with 24 samples.

Results

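The 47 genes of choline, phospholipid and one-carbon metabolism were followed in basal forebrain cholinergic neurons of Ts65Dn mice, a segmental trisomy model of Down syndrome, and of their disomic (2N) littermates. The genes were taken as a list of symbols by their place in these pathways, with no threshold on a measured value, although earlier results of these data were known when the list was drawn up. All 47 were found among the 55414 gene identifiers of the count matrix, with 1 identifier each. The libraries fell into 4 groups: 8 from supplemented Ts65Dn mice, 6 from control-diet Ts65Dn mice, 4 from supplemented 2N mice and 6 from control-diet 2N mice. The series' design text gives 6 mice per group, whereas the sample labels used here give 8 and 4 supplemented mice.

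All mice were male and about 6 months old, from female Ts65Dn breeders crossed with male C57Bl/6J Eicher x C3H/HeSnJ F1 mice. Dams, and the pups up to weaning, ate chow with either 5.0 g/kg (supplemented) or 1.1 g/kg (control) choline chloride from embryonic day 0 to postnatal day 21. From then on every mouse, in all 4 groups, ate the control chow, so that the comparison of diets concerns early exposure and not the diet at death. About 500 neurons immunoreactive for choline acetyltransferase were laser-captured per mouse from the medial septum and the vertical limb of the diagonal band, in 20 µm sections, so each library is a pool of cells cut from tissue rather than a suspension of single neurons. The captured material was sequenced as total RNA. No member of a litter could be matched to another from the labels, and the p-values treat the mice as independent. The animal numbers begin with 14 to 17, a prefix whose meaning the labels do not give. On control diet 4 Ts65Dn and 4 2N mice had numbers beginning with 17, but with supplementation only Ts65Dn replicate 8 did. Numbers beginning with 14 occurred only with supplementation. Prefix and diet therefore cannot be fully told apart.

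Choline enters cells through membrane transporters and, in cholinergic neurons, has competing uses. It is acetylated to the transmitter, phosphorylated and built into phosphatidylcholine through CDP-choline (the Kennedy pathway), or oxidised to betaine, whose methyl group can be passed to homocysteine. The resulting methionine becomes S-adenosylmethionine, the methyl donor of the cell, and the folate cycle, glycine cleavage and transsulfuration connect this methionine cycle to serine, glycine and cysteine. Choline oxidation and the betaine-dependent remethylation of homocysteine are best known from liver and kidney.

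Library quality touches every value below. Total counts ran between 4688258 and 13443438 per library, with a median of 10010353, and 3 counts, the limit that a count of 0 allows, correspond to 0.215 to 0.848 CPM (counts scaled to a common library size, with TMM factors), counting error only. The common biological coefficient of variation of the fit was 1.40. Control-diet Ts65Dn replicate 3 and supplemented Ts65Dn replicate 7 had the fewest detected genes, 13102 and 13141. In supplemented Ts65Dn replicates 2 and 5 the mitochondrial rRNA took 17.8% and 21.2% of the counts, against 29.0% to 43.3% in the other 6 of that group. It took 13.48% to 29.25% in control-diet Ts65Dn, 18.12% to 22.59% in supplemented 2N and 18.86% to 25.81% in control-diet 2N libraries. The high shares were thus mostly in supplemented Ts65Dn mice, and in contrasts with that group the share and the group cannot be fully told apart. Xist, which males should lack, had 80 counts or more in 4 libraries labelled male: control-diet Ts65Dn replicates 1, 2 and 6 and supplemented 2N replicate 2. Supplemented Ts65Dn replicate 8 had 25 Xist counts, control-diet Ts65Dn replicate 4 had 10, and the others had at most 1. The libraries with Xist named below are the 4 with 80 counts or more. The summed level of 9 cholinergic marker genes ran from 113 to 289.6 CPM in supplemented Ts65Dn, 3.10 to 133 CPM in control-diet Ts65Dn, 158.0 to 407 CPM in supplemented 2N and 92.4 to 181 CPM in control-diet 2N libraries. Chat itself had no count in control-diet Ts65Dn replicate 3, the lowest of these sums. Markers of oligodendrocytes, 10 genes, summed to 2764 to 3976 CPM in supplemented Ts65Dn, 734 to 4067 CPM in control-diet Ts65Dn, 2485 to 3380 CPM in supplemented 2N and 2988 to 3964 CPM in control-diet 2N libraries. Markers of astrocytes, also 10 genes, summed to 1539 to 2436 CPM in supplemented Ts65Dn, 1911 to 2391 CPM in control-diet Ts65Dn, 1874 to 2062 CPM in supplemented 2N and 2235 to 2850 CPM in control-diet 2N libraries, and none of them was at 0 in any library. Every library thus held glial RNA beside neuronal RNA, and in such pools fewer cells of a type and less RNA per cell cannot be told apart.

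The phospholipid and methionine branches were represented in these libraries, while the betaine and methionine genes Bhmt, Bhmt2, Dmgdh, Gnmt and Mat1a were at 0 in most of them. Sardh, also of the betaine branch, was counted in 17 of 24 libraries, with a median of 6.12 CPM and a highest value of 24.4 CPM. A count was present in all 24 libraries for 19 members, in 20 to 23 libraries for 15 and in fewer than 20 for 13. Single libraries held counts of 30 to 42 members. Compared by TPM, a relative abundance adjusted for transcript length, the highest median levels over the 24 libraries were 63.8 TPM for Ahcyl1 and 57.6 TPM for Ahcyl2. Both encode relatives of S-adenosylhomocysteine hydrolase, and Ahcyl1 is known as a regulator of the inositol trisphosphate receptor rather than as a hydrolase. They were followed by Pcyt2 (47.4 TPM), the enzyme that makes CDP-ethanolamine, and Mat2a (39.2 TPM), the S-adenosylmethionine synthetase of tissues other than liver. Next in order stood Etnk1 (34.1 TPM), an ethanolamine kinase, Chka (29.2 TPM), the choline kinase that opens the CDP-choline route, and Slc44a1 (28.8 TPM), a choline transporter of the plasma and mitochondrial membranes. The ranges of neighbours in this order overlapped widely: Pcyt2 ran from 10.5 to 118 TPM and Mat2a from 5.65 to 182 TPM.

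**Figure D1:**
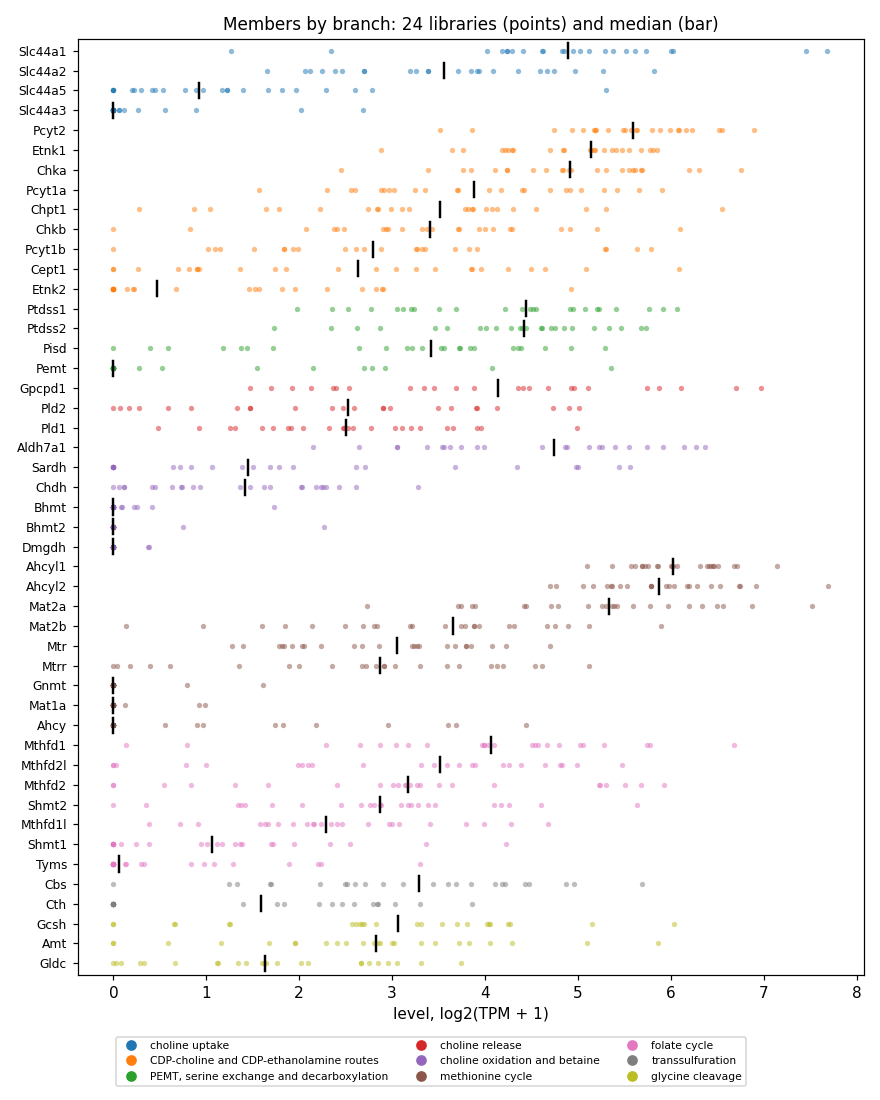
Level of each of the 47 members, as log2(TPM + 1), in the 24 libraries (points, coloured by branch), with the median over libraries as a bar; rows are ordered by branch and, within a branch, from high to low median. The median sits at 0 for Bhmt, Bhmt2, Dmgdh, Gnmt, Mat1a, Ahcy, Pemt and Slc44a3, and is highest for Ahcyl1 at 63.8 TPM.

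Within the branches, the member with the highest mean TPM was Slc44a1 for uptake, Pcyt2 for the CDP routes, Ptdss1, a phosphatidylserine synthase that exchanges the choline headgroup for serine, for the base-exchange group, and Gpcpd1, which hydrolyses glycerophosphocholine, for choline release. For betaine synthesis and use it was Aldh7a1, an aldehyde dehydrogenase that can oxidise betaine aldehyde and also acts on lysine breakdown. Ahcyl1 led the members grouped under the methionine cycle, where Mat2a, an enzyme of the cycle itself, had a mean of 49.1 TPM. Mthfd1, the trifunctional cytosolic folate enzyme, led the folate cycle, Cbs, cystathionine beta-synthase, transsulfuration, and Gcsh, the lipoate-carrying H protein, the glycine cleavage group. Median levels over the 24 libraries were 20.8 TPM for Ptdss1, 16.6 TPM for Gpcpd1, 25.8 TPM for Aldh7a1 and 15.7 TPM for Mthfd1. They were 8.79 TPM for Cbs and 7.35 TPM for Gcsh.

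Of the 47 genes, 5 did not pass the count filter and entered no test: Bhmt, Bhmt2, Dmgdh, Gnmt and Mat1a. Bhmt, betaine-homocysteine methyltransferase, had counts in 6 of 24 libraries and 112 counts in all, of which 89 came from control-diet Ts65Dn replicate 2. Bhmt2, its paralogue, had 73 counts in 2 libraries, 60 of them in supplemented Ts65Dn replicate 7. Dmgdh, dimethylglycine dehydrogenase, had 17 counts in 2 libraries, and Gnmt, glycine N-methyltransferase, had 19 counts in 2 libraries. Mat1a, the S-adenosylmethionine synthetase typical of liver, had 51 counts in 3 libraries. Chdh, choline dehydrogenase, which makes the betaine aldehyde, was in contrast counted in 23 of 24 libraries at a median of 1.67 TPM. Its lowest, median and highest values were 0.173, 3.40 and 40.0 CPM in supplemented Ts65Dn mice and 0.00, 5.59 and 20.9 CPM in control-diet Ts65Dn mice. In 2N mice it had 2.94, 8.64, 9.58 and 1.47 CPM with supplementation, against 3.02, 8.98 and 27.2 CPM (lowest, median, highest) on control diet, so that all 4 groups overlapped.

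The start regions of these genes differ in base composition, which is set beside their detection here without a test. RefSeq windows from 250 bases before to 50 bases after the start (GRCm38.p6) were matched for 41 of the 47 members, and the CG dinucleotide was counted on the gene's strand, which gives the same count on the other strand. The windows of Slc44a1 (chr4:53440163-53440462, plus strand) and Mat2a (chr6:72439507-72439806, minus strand), both counted in all libraries, are printed beside those of Pemt (chr11:60040139-60040438, minus strand) and Bhmt (chr13:93637709-93638008, minus strand), which were at 0 in most libraries. Each is 300 bases long and written 5′ to 3′, with every CG in capitals.
Slc44a1: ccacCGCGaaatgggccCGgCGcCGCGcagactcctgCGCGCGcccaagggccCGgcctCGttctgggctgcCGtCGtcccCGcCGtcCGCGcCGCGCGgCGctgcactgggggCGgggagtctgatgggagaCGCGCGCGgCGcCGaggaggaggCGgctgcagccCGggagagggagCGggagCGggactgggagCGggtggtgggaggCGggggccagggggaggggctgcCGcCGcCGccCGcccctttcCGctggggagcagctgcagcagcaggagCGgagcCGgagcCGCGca
Mat2a: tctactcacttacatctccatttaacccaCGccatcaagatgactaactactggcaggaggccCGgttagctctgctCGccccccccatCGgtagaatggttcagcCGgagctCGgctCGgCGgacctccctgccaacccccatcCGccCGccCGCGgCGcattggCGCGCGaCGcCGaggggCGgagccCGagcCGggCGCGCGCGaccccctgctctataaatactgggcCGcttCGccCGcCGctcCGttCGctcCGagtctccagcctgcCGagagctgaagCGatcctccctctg
Pemt: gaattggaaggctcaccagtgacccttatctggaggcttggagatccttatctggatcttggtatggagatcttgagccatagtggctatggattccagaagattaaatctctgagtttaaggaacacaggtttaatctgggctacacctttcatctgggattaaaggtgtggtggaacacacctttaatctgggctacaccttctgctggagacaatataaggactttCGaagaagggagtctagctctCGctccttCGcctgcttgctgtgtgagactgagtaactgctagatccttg
Bhmt: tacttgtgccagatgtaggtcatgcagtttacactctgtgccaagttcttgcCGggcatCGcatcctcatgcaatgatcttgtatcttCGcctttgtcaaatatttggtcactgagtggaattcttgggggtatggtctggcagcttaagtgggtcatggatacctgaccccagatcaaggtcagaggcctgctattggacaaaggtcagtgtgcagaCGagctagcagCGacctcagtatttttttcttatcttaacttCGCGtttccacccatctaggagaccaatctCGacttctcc
These hold 43, 34, 3 and 8 CG dinucleotides. A count of 15 or more was found in 14 of 15 matched members counted in all libraries, 11 of the 22 other tested members, 2 of the 4 that failed the filter, and 34.6% of all 32851 windows of the table. The 2 of these 4 that reached it are Bhmt2 (26 CG) and Dmgdh (25 CG), whose windows lie on opposite strands and share 233 bases. The share among all genes counted in every library is not given, so the 14 of 15 cannot be called particular to these members. The median was 28.0 CG for members counted in all libraries, 14.5 for the other tested members and 7 for all windows. This is a description of letters in a window, and neither methylation nor factor binding was measured.

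Some members share sequence with other loci. Of all 50-base stretches, the read length here, in the annotated transcripts of Ahcy, the S-adenosylhomocysteine hydrolase itself, 68.7% also occur in another gene, most often in Gm4737. Ahcy was at 0 in 14 libraries, with a mean of 1.94 CPM over the 24, while Gm4737 averaged 7.72 CPM, and their sum was above 0 in 23 of 24 libraries with a median of 6.96 CPM. The split between these loci, and with it every Ahcy value, is uncertain. Chkb, the second choline kinase, shares 43.7% of its stretches, most often with Gm44502, and Pisd, phosphatidylserine decarboxylase, 18.5%, most often with Gm20671. Bhmt, one of the members that failed the filter, shares 25.3%, most often with Gm5096, so its low counts are uncertain too. Expected counts that are not whole numbers stood in 21 libraries each for Pisd and Mat2a and in 19 for Chka, which shares 0.82%. They also stood in 10 libraries for Chpt1, 8 for Etnk1 and 7 for Slc44a1, although Etnk1 and Slc44a1 share 0.00% of their stretches, so the shared stretches do not account for all fractional values. Why the values of Slc44a1 and Etnk1 were fractional was not tested.

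Gene expression was compared between genotypes on each diet, between diets in each genotype, and between supplemented Ts65Dn mice and control-diet 2N mice. The interaction asked whether the diet difference itself differed between genotypes. None of the 42 tested members passed an adjusted p of 0.05 in any of these 6 contrasts (edgeR quasi-likelihood test, Benjamini-Hochberg adjustment over 19967 genes). The smallest adjusted p of a member was 0.240, for Slc44a1 between supplemented and control-diet Ts65Dn mice. By DESeq2 and limma-voom no member passed either, with smallest adjusted p of 0.0977 and 0.140. Over all tested genes, the share called was 0.336% between control-diet Ts65Dn and 2N mice, 0.13% between diets in Ts65Dn mice, 0.00501% between diets in 2N mice, 0.18% between supplemented Ts65Dn and 2N mice, 0.546% between supplemented Ts65Dn and control-diet 2N mice, and 0.00501% for the interaction. At these shares a list of 42 would hold less than 1 call, so the count of 0 does not set the members apart.

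An unadjusted p under 0.05 was reached by 3 members, 1 higher and 2 lower, between control-diet Ts65Dn and 2N mice (7.14% of the members, against 10.9% of all genes). It was reached by 1 member, higher, between diets in Ts65Dn mice (2.38%, against 9.62%) and by 3, 1 higher and 2 lower, between supplemented Ts65Dn and control-diet 2N mice (7.14%, against 9.17%). No member reached it between diets in 2N mice, between supplemented Ts65Dn and 2N mice, or in the interaction, where 6.92%, 9.49% and 8.43% of all genes did. The median log2 fold change of the 42 members was -0.11 between genotypes on control diet, beside -0.02 over all genes. Between diets it was 0.07 in Ts65Dn mice, beside 0.04, and -0.06 in 2N mice, beside -0.06. Between supplemented Ts65Dn mice and supplemented 2N mice it was -0.03, beside 0.09, and against control-diet 2N mice -0.04, beside 0.00. In the interaction it was -0.04, beside 0.13. Members stood on both sides of 0 in each contrast, for example 20 positive and 22 negative between genotypes on control diet and 24 positive and 18 negative between diets in Ts65Dn mice.

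**Figure D2:**
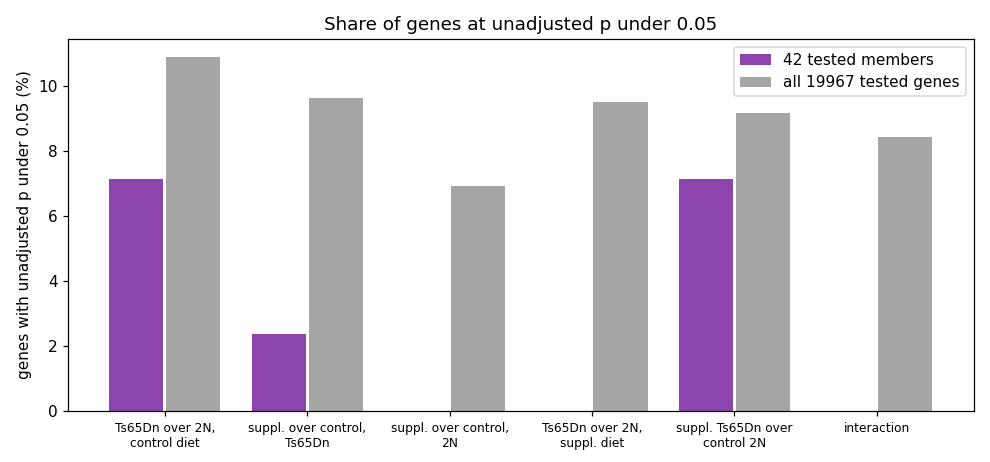
Share of genes with an unadjusted p under 0.05 (vertical axis, percent) in the 6 contrasts, for the 42 tested members (purple) and all 19967 tested genes (grey). The members' share is below that of all genes in each contrast, 7.14% against 10.9% for control-diet Ts65Dn over 2N mice and 2.38% against 9.62% for supplemented over control-diet Ts65Dn mice.

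The size of change that these data could miss varied strongly between members. Between supplemented and control-diet Ts65Dn mice the 95% interval of the log2 fold change lay within 2-fold of no change for 5 members: Chka, Pcyt2, Etnk1, Ahcyl1 and Ahcyl2 (11% of all tested genes had such an interval, and 0.0701% had groups that did not overlap, which no member had). The narrowest was that of Ahcyl1, -0.40 to 0.58, and the widest that of Pemt, phosphatidylethanolamine N-methyltransferase, -1.99 to 6.86. Between genotypes on control diet 2 members, Ahcyl1 and Ahcyl2, had such an interval (8.46% of all genes). Between diets in 2N mice there were 3, Ahcyl1, Ahcyl2 and Etnk1 (8.69% of all genes), and between supplemented Ts65Dn and supplemented 2N mice these and Chka (8.69%). Against control-diet 2N mice, supplemented Ts65Dn mice again gave Ahcyl1, Ahcyl2 and Etnk1 (10.9%), and the interaction gave Ahcyl2 alone (3.42%). For the remaining members a doubling or more in at least one direction was within the interval.

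**Figure D3:**
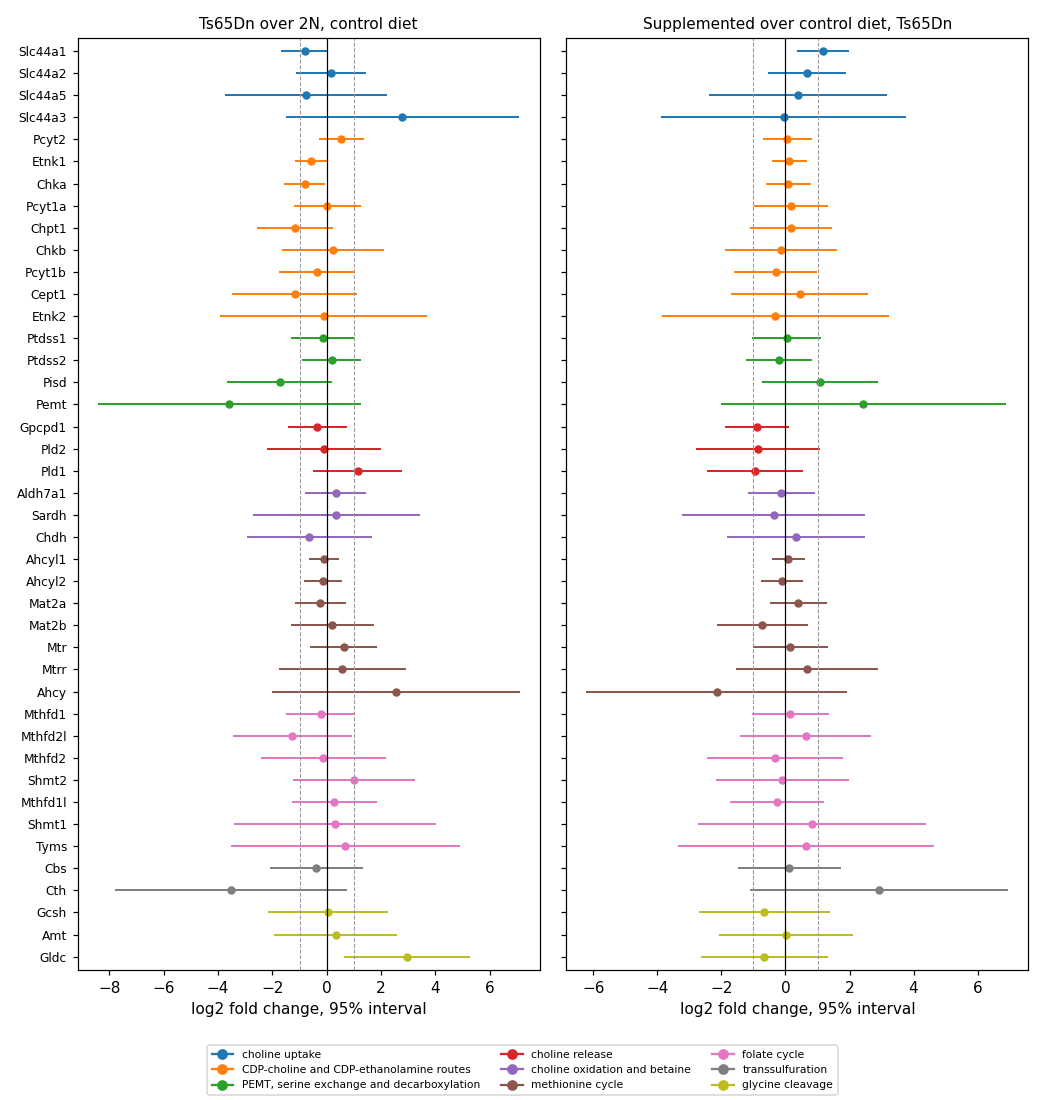
Log2 fold change (point) and 95% interval (line) of the 42 tested members for control-diet Ts65Dn over control-diet 2N mice (left) and supplemented over control-diet Ts65Dn mice (right), coloured by branch, with dashed lines at a 2-fold change. Slc44a1, 0.39 to 1.96, is the interval that clears 0 on the right, and intervals are widest for members with few counts such as Pemt and Cth.

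Between control-diet Ts65Dn and 2N mice, the smallest p of a member belonged to Gldc, glycine decarboxylase, the P protein that starts glycine cleavage and feeds one-carbon units into mitochondrial folate. Its lowest, median and highest levels were 1.52, 17.0 and 36.7 CPM in Ts65Dn mice, against 0.103, 3.25 and 4.01 CPM in 2N mice. Of the 6 Ts65Dn libraries 5 were above every 2N library, and 1 lay within their range. The log2 fold change was 2.95 (SE 1.13, 95% interval 0.68 to 5.22), with an adjusted p of 0.249 in edgeR. With covariates, with libraries left out and by other tools the difference lay between 1.50 and 3.68, and its adjusted p did not fall under 0.0977. Astrocytes express Gldc strongly in brain, as background, and the 10 astrocyte markers were lower in 9 cases and higher in 1 in the same contrast, with a median log2 fold change of -0.48 and no marker called. Of these markers 3 had an unadjusted p under 0.05 in edgeR, against 10.9% of all tested genes. The markers' part in the Gldc values was not tested.

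On the CDP route, Chka and Etnk1 gave the smallest p among members that were lower in control-diet Ts65Dn mice. Chka had 23.8, 50.1 and 72.5 CPM (lowest, median, highest) in Ts65Dn mice, against 58.7, 79.4 and 131.6 CPM in 2N mice, and 5 of 6 Ts65Dn libraries lay below every 2N library. Its log2 fold change was -0.81 (SE 0.36, interval -1.53 to -0.09), with an adjusted p of 0.355 in edgeR. Etnk1 had 100.3, 157 and 184.0 CPM in Ts65Dn mice, against 185.0, 220.2 and 276.9 CPM in 2N mice. The groups did not overlap, by a gap of about 1 CPM, as was also the case for 0.631% of all tested genes. The log2 fold change of Etnk1 was -0.56 (SE 0.28, interval -1.12 to -0.00), with an adjusted p of 0.451 in edgeR. With the glial marker score in the fit the Etnk1 difference was -0.20, and on log2(TPM + 1) values it was -0.77. In the same contrast the fold change was negative for 10 of 10 oligodendrocyte markers (median -0.53), 5 of 6 general neuron markers (median -0.44) and 8 of 9 cholinergic markers (median -0.89), none of them called. An unadjusted p under 0.05 in edgeR was reached by 1, 2 and 2 markers of these lists, in that order, against 10.9% of all tested genes. The part of these markers in the Chka and Etnk1 values was not tested. Pld1, phospholipase D, which releases choline from phosphatidylcholine, averaged 22.4 ± 11.5 CPM in Ts65Dn mice, against 10.1 ± 7.40 CPM in 2N mice (SD, n = 6 each), with an adjusted p of 0.713 in edgeR. Within the 4 Ts65Dn and 4 2N mice whose animal numbers begin with 17, the difference in mean log2 CPM was 3.03 for Gldc, -0.91 for Chka, -0.51 for Etnk1 and 0.75 for Pld1, each in the direction of the whole comparison. These mice are part of that comparison, and the genes were picked by their p in it, which favours a like direction. A fit within these mice called 0 of 13991 tested genes, and the smallest adjusted p of a member was 0.391 in edgeR.

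By branch, the 3 glycine cleavage genes all had a positive fold change between control-diet Ts65Dn and 2N mice, median 0.32, but only the interval of Gldc left out 0. Of the 9 genes of the CDP routes 6 were negative, median -0.35, and both transsulfuration genes were negative. Cth, cystathionine gamma-lyase, was at 0 in 5 of the 6 control-diet Ts65Dn libraries, with 1.69 CPM in the other, against 1.40, 3.11 and 6.77 CPM (lowest, median, highest) in control-diet 2N mice, where every library had counts. Its partner Cbs had 0.00, 7.68 and 31.8 CPM in Ts65Dn mice, against 3.87, 15.4 and 32.7 CPM in 2N mice, with wide overlap. Each of these branches holds few genes, and none of their genes passed the adjusted threshold.

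Between diets in Ts65Dn mice, Slc44a1 had the smallest p of all members in all contrasts. Its levels in supplemented Ts65Dn mice were 42.6, 75.5 and 153 CPM (lowest, median, highest), against 5.06, 46.5 and 51.4 CPM in control-diet Ts65Dn mice. All 8 supplemented libraries were above the control-diet mean, 6 of them above every control-diet library, and the remaining 2 lay within the control-diet range. Its mean was 79.8 ± 34.0 CPM (SD, n = 8) with supplementation, against 35.2 ± 20.1 CPM (SD, n = 6) on control diet. The log2 fold change was 1.18 (SE 0.39, interval 0.39 to 1.96), with an adjusted p of 0.240 in edgeR. In 2N mice, Slc44a1 had 49.0, 67.9, 112 and 37.3 CPM with supplementation, against 44.9, 60.2 and 88.0 CPM (lowest, median, highest) on control diet, and these ranges overlapped fully. The control-diet Ts65Dn group was the low one of the 4, with replicates 1 and 3 at 5.06 and 14.0 CPM and 4 other libraries between 46.0 and 51.4 CPM.

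**Figure D4:**
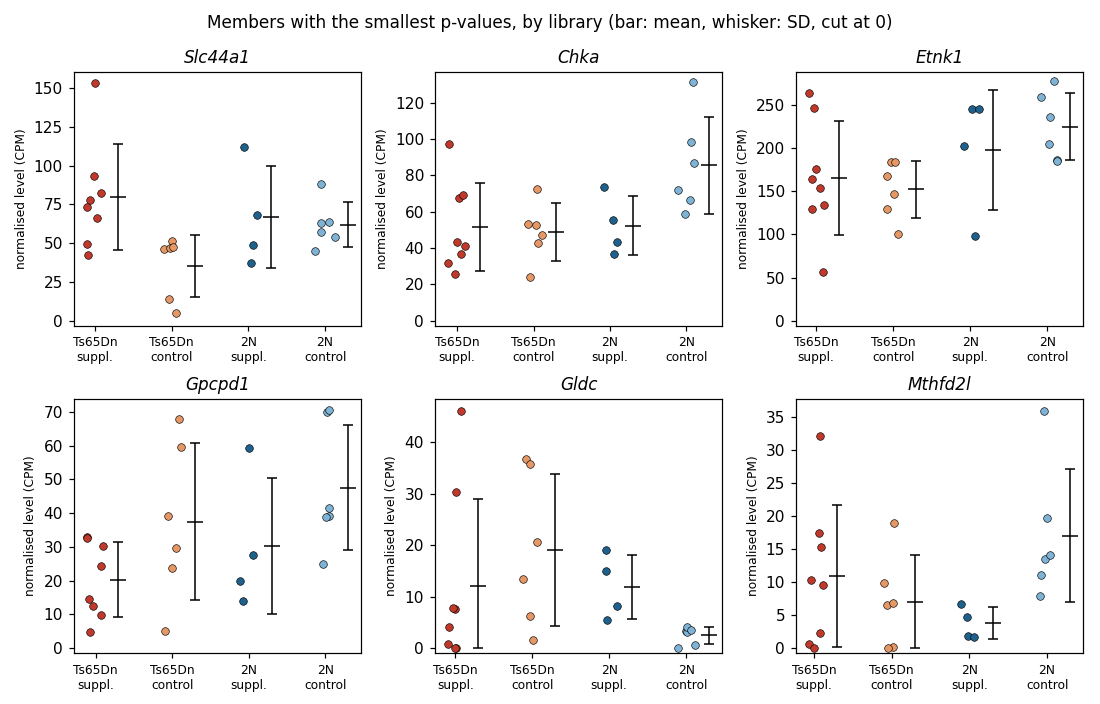
Normalised level in CPM (vertical axes, from 0) of 6 members in each library (points) of the 4 groups, with mean and SD beside the points. Slc44a1 is lowest in control-diet Ts65Dn mice, Chka and Gpcpd1 have their highest means in control-diet 2N mice, and Gldc has its lowest mean, 2.45 CPM, in control-diet 2N mice.

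The 2 low libraries of Slc44a1 were also low in oligodendrocyte markers, whose sum was 2284 CPM in control-diet Ts65Dn replicate 1 and 734 CPM in replicate 3. Both held counts of only 30 members, the fewest of all libraries, and replicate 1 had 14112 detected genes. Replicate 6 had a sum of 1563 CPM and 47.5 CPM of Slc44a1, in the range of its group. Of the 10 oligodendrocyte markers, 8 had a positive and 2 a negative fold change between diets in Ts65Dn mice, with a median of 0.61 and no marker called. All 9 cholinergic markers were positive, with a median of 1.50 and none called. Of the 6 general neuron markers, 2 were positive and 4 negative, with a median of -0.15 and none called. An unadjusted p under 0.05 in edgeR was reached by 3 oligodendrocyte, 5 cholinergic and 2 general neuron markers, against 9.62% of all tested genes. The part of these markers, or of the low detection, in the Slc44a1 values was not tested. Without the libraries with the fewest genes, control-diet Ts65Dn replicate 3 and supplemented Ts65Dn replicate 7, the fold change of Slc44a1 was 0.83, and with a glial marker score in the fit it was 1.06. With the mitochondrial rRNA share in the fit it was 0.79, with an adjusted p of 0.601 in edgeR. On log2(TPM + 1) values it was 2.31 with an adjusted p of 0.102 in limma. Among the mice whose numbers begin with 16, 2 against 2, the difference in mean log2 CPM was 2.94. The control-diet pair had 5.06 (replicate 1) and 46.05 CPM, the supplemented pair 93.4 and 152.9 CPM, so replicate 1 weighs heavily here. Over 27 alternatives the fold change lay between 0.79 and 2.31. They include fits with the animal-number prefix, without control-diet replicate 1 and without the libraries with Xist. With the prefix, the smallest adjusted p of any member was 0.499 in edgeR.

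**Figure D5:**
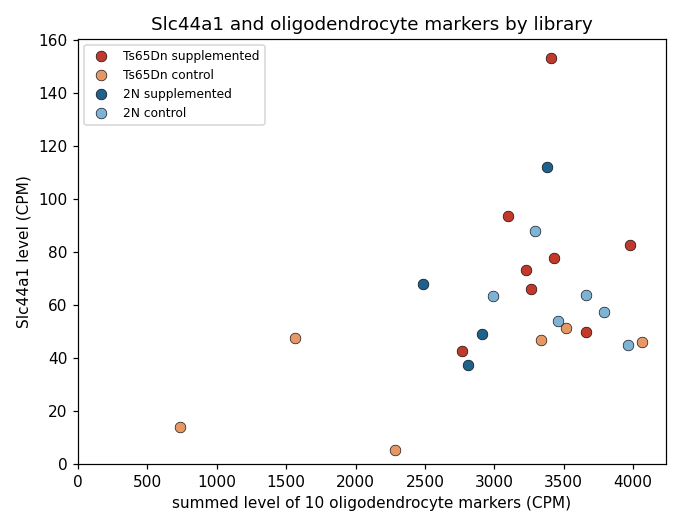
Slc44a1 level (vertical axis, CPM) against the summed level of 10 oligodendrocyte markers (horizontal axis, CPM) in the 24 libraries, coloured by group. Control-diet Ts65Dn replicates 3 and 1, at 734 and 2284 CPM of marker sum, have the lowest Slc44a1 levels, 14.0 and 5.06 CPM. These libraries also hold counts of the fewest members, 30 each. Control-diet Ts65Dn replicate 6 has a marker sum of 1563 CPM and 47.55 CPM of Slc44a1.

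The genes of choline release were negative in all 3 cases between diets in Ts65Dn mice, with a median log2 fold change of -0.89 and none past the threshold. Gpcpd1, which yields choline from glycerophosphocholine, had 4.81, 19.4 and 32.8 CPM with supplementation, against 5.15, 34.3 and 67.8 CPM on control diet. The groups overlapped over most of the supplemented range. The log2 fold change was -0.89 (interval -1.87 to 0.09), with an adjusted p of 0.606 in edgeR. Pld1 averaged 11.6 ± 7.36 CPM (SD, n = 8) with supplementation, against 22.4 ± 11.5 CPM (SD, n = 6) on control diet, with an adjusted p of 0.793 in edgeR. For Cth, 4 of 8 supplemented libraries had counts, up to 5.84 CPM, against 1 of 6 control-diet libraries, with a fold change of 2.93 whose interval ran from -1.08 to 6.93. It was 0.07 with the animal-number prefix in the fit and 7.43 without the 4 libraries with Xist. Among the mice with numbers beginning with 16 the Cth difference had the other sign, -1.59.

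Between diets in 2N mice, where only 4 supplemented libraries were available, no member reached an unadjusted p of 0.05. The lowest p was again that of Gldc, with 8.24, 5.41, 19.1 and 15.0 CPM in the 4 supplemented mice, against 0.103, 3.25 and 4.01 CPM (lowest, median, highest) on control diet. The groups did not overlap, and the log2 fold change was 2.28 (interval -0.08 to 4.64), with an adjusted p of 0.763 in edgeR. The mitochondrial folate enzyme Mthfd2l did not overlap either, with 1.86, 4.68, 1.69 and 6.72 CPM with supplementation, against 7.81, 13.8 and 35.8 CPM on control diet. Its log2 fold change was -2.18 (interval -4.76 to 0.41), with an adjusted p of 0.928 in edgeR. Groups of this size did not overlap for 1.34% of all tested genes. Chka had 36.7, 73.6, 43.4 and 55.6 CPM with supplementation, against 58.7, 79.4 and 131.6 CPM on control diet, and 3 of the 4 supplemented libraries lay below every control-diet one. The fold change of Chka was -0.71 (interval -1.53 to 0.10), with an adjusted p of 0.890 in edgeR. Slc44a3, a little-studied relative of Slc44a1, was above 0 in 2 of 4 supplemented libraries, against 1 of 6 on control diet, and its positive fold change of 4.06 rested on replicate 2 with 5.41 CPM, since it was -0.37 without that library.

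For Gldc the control-diet 2N group had the lowest mean of the 4 groups, and for Chka the highest. Gldc averaged 12.1 ± 16.9 CPM in supplemented Ts65Dn (SD, n = 8), 19.0 ± 14.8 CPM in control-diet Ts65Dn (SD, n = 6), 11.9 ± 6.22 CPM in supplemented 2N (SD, n = 4) and 2.45 ± 1.68 CPM in control-diet 2N mice (SD, n = 6). Chka averaged 51.7 ± 24.2 CPM in supplemented Ts65Dn, 48.8 ± 15.9 CPM in control-diet Ts65Dn, 52.3 ± 16.2 CPM in supplemented 2N and 85.7 ± 26.7 CPM in control-diet 2N mice (SD, same n). Since these contrasts share the same 6 control-diet 2N libraries, a like direction in them is not independent.

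Between supplemented Ts65Dn and control-diet 2N mice, Gpcpd1 had the smallest p. Its levels were 4.81, 19.4 and 32.8 CPM in supplemented Ts65Dn mice, against 25.0, 40.3 and 70.5 CPM in control-diet 2N mice, with 5 of the 8 supplemented libraries below every 2N library. The log2 fold change was -1.23 (SE 0.49, interval -2.21 to -0.25), with an adjusted p of 0.320 in edgeR. With the animal-number prefix in the fit it was -0.70, and with the glial marker score -0.71. Chka had a log2 fold change of -0.73 (interval -1.39 to -0.06), with an adjusted p of 0.456 in edgeR. On log2(TPM + 1) values the Chka difference was -1.61 with an adjusted p of 0.039 in limma, the only alternative in which a member passed the threshold. With these values 549 of all 19967 tested genes passed it, 141 higher and 408 lower, so this call does not set the members apart. In that analysis the median over all tested genes also moved to -0.46, and the part of this shift in the Chka value was not tested. Gldc had a fold change of 2.29 (interval 0.15 to 4.44), with an adjusted p of 0.480 in edgeR. It was 0.55 on log2(TPM + 1) values and 0.88 with limma-voom, and among the mice with numbers beginning with 15, 4 against 2, the difference in mean log2 CPM was 0.82. Pcyt2 averaged 60.4 ± 27.3 CPM in supplemented Ts65Dn mice (SD, n = 8), against 39.9 ± 13.7 CPM in control-diet 2N mice (SD, n = 6), with an adjusted p of 0.718 in edgeR.

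Between supplemented Ts65Dn and supplemented 2N mice the smallest p was that of Mat2b, the regulatory subunit that pairs with the Mat2a enzyme. Mat2b had 0.312, 7.85 and 39.0 CPM in supplemented Ts65Dn mice, against 27.2, 46.5, 9.11 and 29.5 CPM in the 4 supplemented 2N mice. The log2 fold change was -1.30 (interval -2.83 to 0.23), with an adjusted p of 0.698 in edgeR. Amt, the aminomethyltransferase of glycine cleavage, averaged 10.3 ± 8.17 CPM in Ts65Dn mice (SD, n = 8), against 3.55 ± 2.25 CPM in 2N mice (SD, n = 4), with an adjusted p of 0.898 in edgeR. Mthfd2l averaged 10.9 ± 10.7 CPM in Ts65Dn mice (SD, n = 8), against 3.74 ± 2.42 CPM in 2N mice (SD, n = 4), with an adjusted p of 0.880 in edgeR, and its difference had the other sign, -3.09, among the 2 against 2 mice with numbers beginning with 16. Ahcyl1, the member with the highest median TPM, averaged 129 ± 33.9 CPM in Ts65Dn mice (SD, n = 8), against 169.7 ± 53.5 CPM in 2N mice (SD, n = 4). Its interval, -0.94 to 0.15, lay within 2-fold of no change.

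The interaction gave no member past the threshold. The diet difference of Slc44a1 was larger in Ts65Dn than in 2N mice by 1.07 on the log2 scale (interval -0.13 to 2.28), with an adjusted p of 0.672 in edgeR. For Gldc it was -2.93 (interval -5.99 to 0.12), with an adjusted p of 0.620, and for Mthfd2l it was 2.82 (interval -0.43 to 6.07), with an adjusted p of 0.694. A difference between genotypes in the response to early choline was therefore not detected for any member, and for these 3 genes the intervals include both no difference and a large one. Slc44a3 had -4.12 (interval -9.95 to 1.71), and the sign depended on supplemented 2N replicate 2, since the value was 0.31 without it.

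Several enzymes at pathway branch points had wide spreads within the groups. Pcyt1a, the enzyme that makes CDP-choline and sets the pace of phosphatidylcholine synthesis, averaged 26.6 ± 18.2 CPM in supplemented Ts65Dn, 23.6 ± 16.7 CPM in control-diet Ts65Dn, 35.5 ± 25.1 CPM in supplemented 2N and 23.4 ± 15.2 CPM in control-diet 2N mice (SD, n = 8, 6, 4 and 6). Mat2a averaged 50.5 ± 25.5 CPM in supplemented Ts65Dn, 38.3 ± 20.5 CPM in control-diet Ts65Dn, 33.8 ± 14.4 CPM in supplemented 2N and 45.3 ± 24.9 CPM in control-diet 2N mice. Mtr, the cobalamin-dependent methionine synthase that joins the folate and methionine cycles, averaged 27.6 ± 23.4 CPM in supplemented Ts65Dn, 24.8 ± 14.6 CPM in control-diet Ts65Dn, 22.98 ± 8.35 CPM in supplemented 2N and 16.1 ± 7.73 CPM in control-diet 2N mice. For each of these the SD within a group was as large as or larger than most differences between group means, and none of their intervals lay within 2-fold of no change, so neither a difference nor its absence was shown.

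In the folate cycle, Mthfd1 averaged 29.6 ± 16.6 CPM in supplemented Ts65Dn, 26.5 ± 19.1 CPM in control-diet Ts65Dn, 28.9 ± 13.8 CPM in supplemented 2N and 30.9 ± 19.8 CPM in control-diet 2N mice, group means that lay within 1 SD of each other. Shmt1, the cytosolic serine hydroxymethyltransferase, was low, at 0 in 7 of 24 libraries, with means of 4.08 ± 4.61 CPM in supplemented Ts65Dn, 2.28 ± 2.55 CPM in control-diet Ts65Dn, 1.21 ± 2.18 CPM in supplemented 2N and 1.84 ± 1.48 CPM in control-diet 2N mice. Pemt, which makes phosphatidylcholine by methylating phosphatidylethanolamine and is known chiefly from liver, was at 0 in 15 of 24 libraries, and above 0 in 3 of 8 in supplemented Ts65Dn, 2 of 6 in control-diet Ts65Dn, 2 of 4 in supplemented 2N and 2 of 6 in control-diet 2N libraries. Its highest value was 11.4 CPM, in a control-diet 2N library. These low genes were counted in some libraries of every group, and differences below several-fold were not detectable for them in these libraries.

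A wider list of 49 genes of the same pathways, which are not among the 47, was read with the same fit. It holds, for example, acyltransferases, lipins, sphingomyelin enzymes, folate carriers and glutathione enzymes. Of the 47 that were tested, none passed the adjusted threshold in either direction in any of the contrasts. Between control-diet Ts65Dn and 2N mice 14 were positive and 33 negative, with a median log2 fold change of -0.60, beside -0.02 over all genes. Between diets the median was 0.33 in Ts65Dn mice, with 28 positive and 19 negative, and -0.35 in 2N mice, with 16 positive and 31 negative, and in the interaction 38 were positive and 9 negative, with a median of 0.60, beside 54.4% positive and a median of 0.13 over all genes. In the interaction 9 of 10 oligodendrocyte markers (median 1.01), 9 of 10 astrocyte markers (median 0.52) and 7 of 9 cholinergic markers (median 1.13) were positive too, and the part of these cell types in the list's values was not tested. The list shares Chat, Slc5a7 and Slc18a3 with the cholinergic markers, and the summed level of its genes was 934 to 1229 CPM in supplemented Ts65Dn, 578 to 1193 CPM in control-diet Ts65Dn, 997 to 1087 CPM in supplemented 2N and 1107 to 1354 CPM in control-diet 2N libraries.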

How the data were processed

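RNA was measured in 24 libraries of laser-captured basal forebrain cholinergic neurons, 1 per mouse. Per the labels' protocols, they were made with the SMARTer Stranded Total RNA-Seq Pico kit and sequenced as single reads of 50 cycles, and libraries below 2 nM were left out. Trimmomatic 0.39, STAR and RSEM are named in the submitters' processing notes, with the builds GRCm39 and mm10 but not their roles. The authors deposited RSEM expected counts per gene, not normalised, and TPM, which is scaled to transcript length and library. The expected counts of the series table equalled those of the sample files. Identifiers were paired with symbols through a gene name table (52081 of 55414 matched).

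Expected counts were rounded and tested with edgeR 4.0.16 (R 4.3.3): TMM scaling, a filter at a minimum count of 10 that left 19967 genes, and 1 quasi-likelihood fit over all 24 libraries with 4 groups and no covariate, with Benjamini-Hochberg adjustment over all genes and a threshold of 0.05. CPM values are TMM-scaled, and log2 CPM uses a prior count of 2. Intervals are 95%. DESeq2 1.42.0, limma 3.58.1 on voom weights or on log2(TPM + 1), other filters and covariates, and fits without libraries were the alternatives. The code was tested on simulated data. Named were the 2 members with the smallest p in each direction and contrast, a fixed set of 16 branch-point genes, the highest member by mean TPM in each branch, and those that failed the filter. The members, lists and tests were chosen with earlier results of these data known. Promoter windows are from RefSeq on GRCm38.p6, and transcripts for the search of shared 50-base stretches from GENCODE.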

Additional observations from a re-analysis of the deposited data

Results flagged for a closer look

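Among 100 combinations of a tested named member and a group of 4 to 8 libraries, 12 held a library far from the rest of its group by Dixon's criterion. The criterion was applied to log2 CPM, and the values below are given in CPM. Chance flags about 1 in 20 groups of normally distributed values. That rate does not hold where all libraries but 1 are at 0, so the 12 cannot be set against it. Many of the flagged genes had few counts. Slc44a3 was flagged at 3.29 CPM in control-diet Ts65Dn replicate 4 (others 0.00 to 0.09), at 5.41 CPM in supplemented 2N replicate 2 (others up to 0.15) and at 0.43 CPM in control-diet 2N replicate 4 (others 0.00). Cth had 1.69 CPM in control-diet Ts65Dn replicate 1, with the others at 0.00. Supplemented 2N replicate 4 carried both a Pemt value of 8.12 CPM (others up to 0.07) and an Ahcy value of 7.34 CPM (others 0.00).

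Other libraries stood low for members counted in nearly every library. Etnk1 had 56.2 CPM in supplemented Ts65Dn replicate 1, against 129.9 to 264.0 CPM in the other 7. Mthfd1 had 3.43 CPM in supplemented Ts65Dn replicate 3 (others 19.1 to 53.4) and 0.48 CPM in control-diet Ts65Dn replicate 3 (others 14.6 to 57.3), a library with few detected genes. Amt was at 0.00 CPM in supplemented Ts65Dn replicate 5 (others 5.10 to 27.6). Control-diet Ts65Dn replicate 1, which also had the lowest Slc44a1 level, had 0.00 CPM of Cbs (others 5.32 to 31.8) and 2.31 CPM of Ptdss1 (others 17.9 to 52.2). No cause was tested for any of these.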

How the results depend on the processing

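The count of members past the threshold was 0 in 168 of 169 alternative analyses, and 0 to 0 in the 86 that left out 1 library. The exception, 1 member, came from log2(TPM + 1) with limma between supplemented Ts65Dn and control-diet 2N mice, and was Chka (-1.61). There 549 of all 19967 tested genes passed the threshold. The 649 alternative fold changes came from 24 pairs of a member and a contrast, with 13 members, picked for the 2 smallest p in each direction. Of these values 644 kept their direction, which picking by p in the same libraries favours, so this says little about other members. Sizes moved: Mthfd2l ran from 0.10 to 3.18 between supplemented Ts65Dn and supplemented 2N mice and from -2.92 to -0.73 between diets in 2N mice, and Chka from -0.92 to -0.24 in the last of these. Reversed were Slc44a3 between diets in 2N mice (-0.383 without the 4 libraries with Xist, -0.369 without supplemented 2N replicate 2, 3.827 to 6.742 without any other single library) and in the interaction (1.674 with the mitochondrial rRNA share, 0.310 without that replicate, -6.798 to -3.883 without any other), and Pcyt2 between supplemented Ts65Dn and control-diet 2N mice (-0.051 on log2(TPM + 1)). Leaving out supplemented Ts65Dn replicates 2 and 5 together, an alternative chosen after seeing the data, gave 0 members past the threshold in every contrast and a Slc44a1 difference between diets in Ts65Dn mice of 1.27. The members' median, followed as another added quantity, moved to -0.559 between supplemented Ts65Dn and control-diet 2N mice on log2(TPM + 1), where the median of all genes was -0.464, and in the interaction to 0.565 with the mitochondrial rRNA share and 0.415 with limma-voom. The cause was not tested. The number of calls over all genes depended more on the tool: between control-diet Ts65Dn and 2N mice 58 rose and 9 fell in edgeR, 205 and 121 in DESeq2, 2 and 1 in limma-voom, and 0 and 0 with the glial marker score. No paired analysis was possible because the labels give no litter or pairing, and replicate numbers only name the mice. Intervals are widest for members with few counts, where only large changes are detectable.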
